A study of Mus musculus with 21 samples.

Results

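Krt5, Krt8, Krt14, Krt18, Krt19, Cdh1, Epcam, Trp63 and Sox2, a set of keratins, epithelial adhesion genes and squamous regulators, were followed across 21 libraries of sorted inflammatory monocytes (IMs). These 9 of the 23420 genes in the count table were chosen by gene symbol, with results from the same libraries already known, so the counts of these genes in the tumor and bone marrow (BM) libraries are given as a description, and the fold changes and p-values describe these libraries and are not independent evidence. Krt8, Krt18 and Krt19 were high in IMs from LN2E1 primary lung tumors and in 4 of 5 libraries from LN4K1 lungs, and were low or at 0 in IMs from lymph node (LN) metastases. Cdh1 was high in both the lymph node and the primary tumor libraries.

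RNA came from IMs that were enriched with a monocyte isolation kit and sorted as CD45+ CD11b+ Ly6Chi Ly6G- SiglecF- cells. Tumor inflammatory monocytes (TIMs) came from primary lung tumors (n = 5) and LN metastases (n = 5) of FVB mice given 500000 KAL-LN2-E1 (LN2E1) cells orthotopically into the lung, and from lungs (n = 5) of DBA2 mice given 300000 LN4K1 cells intravenously. IMs from the BM of healthy FVB mice (n = 3) and healthy DBA2 mice (n = 3) carried no tumor and served as baselines. The study used mice of both sexes, and no engineered allele was named for the mice of these libraries. LN2E1 is a lung squamous carcinoma (LUSC) line made from the parental line KAL by passage in mice, and LN4K1 is a metastatic line derived from the mouse line KLN-205. Host strain, tumor line, route and tissue changed together between the models and cannot be told apart. The study's text speaks of technical replicates, and the labels do not say that replicates are separate animals, so p-values measure only the spread between these libraries, which may be technical.

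Keratins are intermediate filament proteins that form obligate pairs of a type II and a type I chain. Krt8 pairs with Krt18, and often with Krt19, in simple epithelia such as the lung lining, whereas Krt5 pairs with Krt14 in the basal layer of squamous epithelium. Cdh1 encodes E-cadherin, the calcium-dependent receptor of adherens junctions that some myeloid cells also carry, Epcam encodes a homophilic adhesion protein of the epithelial surface, and Trp63 and Sox2 encode transcription factors used to recognize squamous carcinoma. Monocytes are not epithelial cells, and keratin pairs are not part of their usual program. In these bulk samples, fewer cells of a type and less RNA per cell cannot be told apart.

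All 9 genes are protein coding in the GENCODE vM21 annotation of GRCm38. Krt5 (chr15:101707070-101712898, minus strand), Krt8 (chr15:101996698-102004482, minus strand) and Krt18 (chr15:102028180-102032027, plus strand) lie on 1 chromosome, and the starts of Krt8 and Krt18 face away from each other across 23698 bases. Krt14 (chr11:100203162-100207548) and Krt19 (chr11:100140810-100148665) lie on the minus strand of chromosome 11. Cdh1 (chr8:106603351-106670246), Epcam (chr17:87635979-87651129), Trp63 (chr16:25683763-25892102) and Sox2 (chr3:34650405-34652461) are on plus strands. Libraries were not stranded, and 101 exonic bases of Krt8 and 129 of Krt5 are shared with antisense genes (Gm36026 and Gm44323), so reads there could not be told apart. The annotation also holds the processed pseudogene Krt8-ps, which is not a row of the count table and with which the authors' counting could have shared reads.

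RefSeq promoter windows on GRCm38.p6 were found for 6 of the 9 genes, Cdh1, Krt19 and Trp63 not among them. The E-box CAGGTG, a hexamer bound by repressors of epithelial genes such as those of the Snail and Zeb families, was searched with its reverse complement CACCTG in the 250 bases before each start. It was present for 4 of the 6 genes (Krt5, Krt8, Krt18 and Epcam) and for 17.2% of all 32851 promoters. It began 128 bases before the start of Krt5, 111 before that of Krt8, 214 before that of Krt18, and 187 and 19 before that of Epcam. The 110 bases of the Krt8 window outside the annotated gene (chr15:102004483-102004592) held no match. The Krt8 match thus lies inside the annotated gene and not upstream of it. The TATA hexamer TATAAA or its complement TTTATA was present for 0 of the 6 genes and for 12.4% of all promoters. A match is only a string of letters in the window. The windows of Krt18, which was detected in primary tumor TIMs and nearly absent from lymph node TIMs, and of Epcam, which was detected in both, are shown 5′ to 3′ on the plus strand with E-box matches in capitals. The Krt18 window (chr15:102027966-102028179) stops before the first annotated exon, and the Epcam window spans chr17:87635729-87635978.
Krt18: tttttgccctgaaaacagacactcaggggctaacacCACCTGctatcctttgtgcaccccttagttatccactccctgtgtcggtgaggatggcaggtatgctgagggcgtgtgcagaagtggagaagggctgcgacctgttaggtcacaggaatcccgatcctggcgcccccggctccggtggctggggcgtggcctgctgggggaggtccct
Epcam: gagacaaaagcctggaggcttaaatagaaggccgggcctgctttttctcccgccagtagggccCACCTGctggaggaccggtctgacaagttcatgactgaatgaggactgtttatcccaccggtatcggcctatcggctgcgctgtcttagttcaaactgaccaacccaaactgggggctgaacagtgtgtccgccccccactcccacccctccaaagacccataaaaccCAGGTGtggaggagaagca

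Library depth lay between 80772922 and 101043568 counts, and a count of 0 allows up to 3 counts, which is between 0.0268 and 0.0405 CPM (read counts scaled to a common library size and adjusted with TMM factors over the 21 libraries). This limit covers counting error only. Ptprc (CD45) lay between 616 and 3012 CPM, Itgam (CD11b) between 258 and 1604 CPM and Ly6c2 between 974 and 3600 CPM over all libraries, whereas Ly6g was not analysed here. Siglec5, an older symbol of the SiglecF gene, reached at most 7.89 CPM in FVB BM, 10.4 in DBA2 BM, 3.84 in primary tumor, 0.813 in lymph node and 4.70 in LN4K1 lung libraries. LN4K1 lung replicate 3 stood apart from the other 4 libraries of its group, with 327 CPM of Itgam against 696 to 1065 CPM and 2 counts of Krt8 against at least 1689. The LN4K1 lung means of Krt8, Krt18, Krt19 and Cdh1 are therefore also given without it, and fold changes include it unless stated. For Cdh1, lymph node replicate 5 was the lowest of its group (8.14 CPM) and replicate 3 the highest (136 CPM).

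The simple epithelial keratins split the groups. Krt8, the type II chain, was at 5.71, 16.7, 7.84, 14.2 and 18.5 CPM in the 5 primary tumor libraries and at 19.6, 35.6, 0.0270, 21.03 and 36.0 CPM in the 5 LN4K1 lung libraries. In lymph node TIMs it was at 0.0121, 0.0397, 0, 0 and 0.107 CPM, and in BM IMs it reached at most 0.0357 CPM in FVB and 0.0299 CPM in DBA2 mice. Every primary tumor library was above every lymph node and BM library, and LN4K1 lung replicate 3 fell among the BM libraries.

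Krt18, its type I partner, followed Krt8 with 4.85, 15.2, 5.83, 10.8 and 16.2 CPM in primary tumor TIMs and 22.7, 45.7, 0.0810, 33.8 and 45.5 CPM in LN4K1 lung TIMs. Lymph node TIMs held 0, 0.0795, 0.356, 0.505 and 0.0832 CPM. Unlike Krt8, Krt18 was present in all BM libraries, at 0.341, 1.07 and 0.724 CPM in FVB and 0.873, 0.888 and 0.433 CPM in DBA2 mice, which corresponds to between 30 and 105 counts a library beside at most 4 counts of Krt8. LN4K1 lung replicate 3, with 6 counts, was below all 6 BM libraries.

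Krt19, a type I keratin of simple and ductal epithelium, was at 6.32, 12.6, 7.13, 13.2 and 13.0 CPM in primary tumor TIMs and 28.2, 54.7, 0.108, 31.6 and 63.6 CPM in LN4K1 lung TIMs. It was at 0.0121, 0.0265, 0.0475, 0 and 1.02 CPM in lymph node TIMs, the last being the 86 counts of replicate 5. FVB BM replicate 2 held 12 counts (0.122 CPM) and the other BM libraries held 0. Krt19 thus had the same high and low libraries as Krt8.

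**Figure D1:**
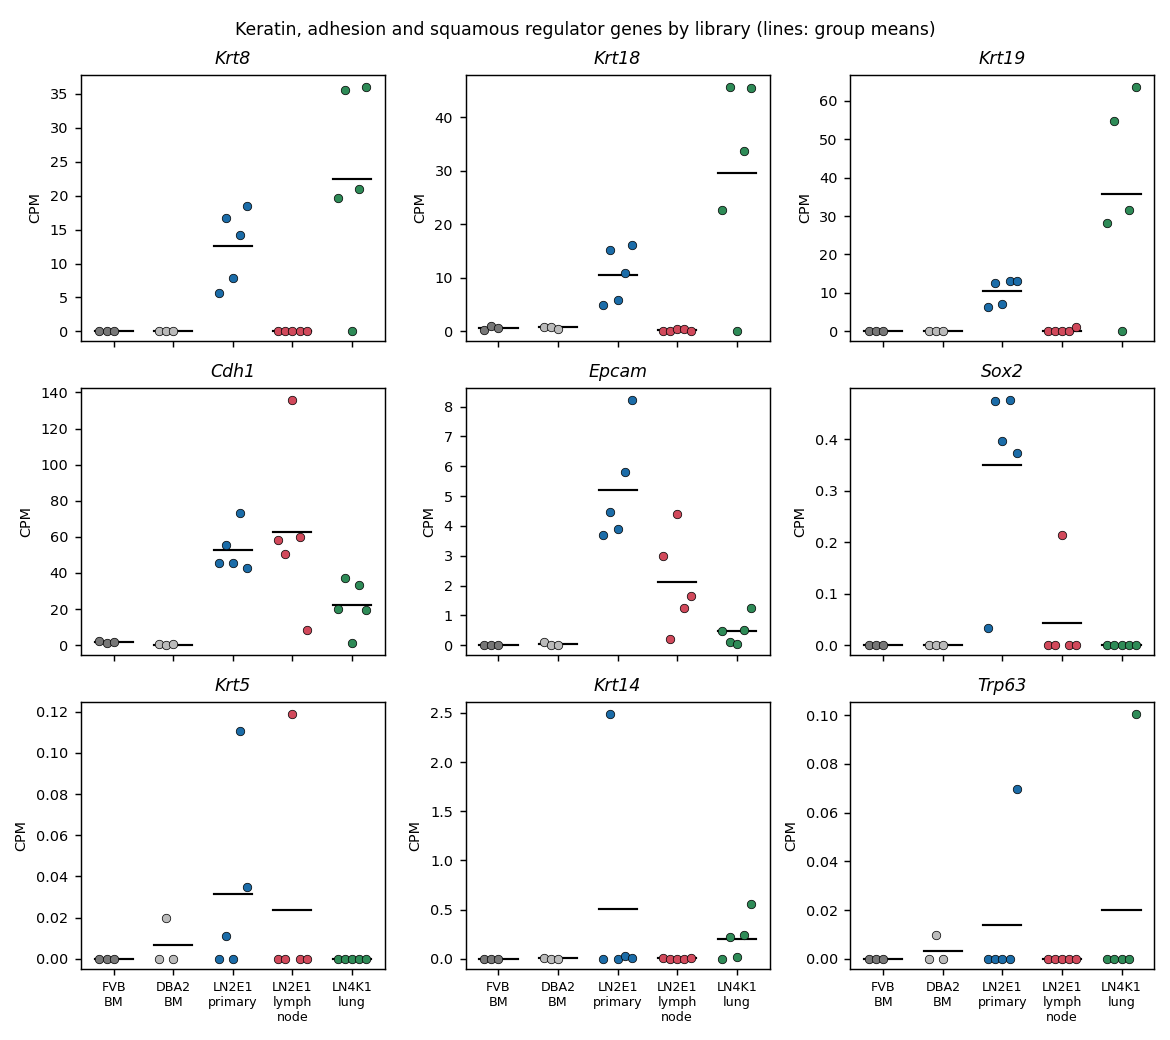
Level of each of the 9 genes (y axis, CPM on a linear scale that differs between panels) in every library of the 5 groups (x axis, n = 3 for each BM group and 5 for each TIM group), with each point a library and each line a group mean. Krt8, Krt18 and Krt19 are high in primary tumor and in 4 of 5 LN4K1 lung libraries, Cdh1 is also high in lymph node libraries, and the panels of Krt5 and Trp63 end near 0.1 CPM.

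Against FVB BM IMs, primary tumor TIMs carried more of all 3 simple keratins. The means were 12.6 ± 5.57 CPM for Krt8, 10.6 ± 5.21 CPM for Krt18 and 10.4 ± 3.41 CPM for Krt19 (SD, n = 5). Krt18, the only one of them detected in every baseline library, rose by 3.86 ± 0.56 on the log2 scale (SE; quasi-likelihood F test of edgeR, Benjamini-Hochberg adjusted p = 0.000282). Krt8 rose with a ratio of 937 to the 4 baseline counts (95% exact Poisson interval of those counts alone, 366 to 3440; edgeR adjusted p = 1.00e-05). The ratio of Krt19 to its 12 baseline counts was 259 (148 to 502; edgeR adjusted p = 5.92e-05). The fitted log2 changes of Krt19 and Krt8 moved from 7.95 to 12.91 without FVB BM replicate 2 and from 9.73 to 13.14 without FVB BM replicate 3, since those libraries held every baseline count of the gene.

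Of the 9 genes, 6 passed the filter on low counts in this comparison and 6 were called higher (adjusted p under 0.05), where 61.9% of the 14569 genes tested were called in either direction and 33.3% were called higher. The 6 passed through the group in which they were high, so their count carries no weight of its own. By the study's thresholds for differentially expressed genes (adjusted p under 0.0001 and absolute log2 fold change above 1), 4 of them passed (Krt8, Krt19, Cdh1 and Epcam) beside 12.9% of genes tested. The study applied these thresholds to DESeq2 tests with shrunken fold changes and then intersected comparisons. Here and below they were applied to edgeR values without that shrinkage, so they are not the study's own calls.

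LN4K1 lung TIMs against DBA2 BM IMs gave the same direction for the simple keratins with a wider spread. The means were 22.5 ± 14.8 CPM for Krt8, 29.6 ± 19.04 CPM for Krt18 and 35.6 ± 24.9 CPM for Krt19 (SD, n = 5), and 28.1 ± 8.97, 36.9 ± 11.02 and 44.5 ± 17.3 CPM without replicate 3 (n = 4). Krt8 rose with a ratio of 1641 to 4 baseline counts (641 to 6023; edgeR adjusted p = 0.00528), and its fitted log2 change moved from 10.47 to 11.67 without DBA2 BM replicate 2. Krt19 was at 0 in all 3 DBA2 libraries and was at least 1125-fold higher against the limit of 3 counts a library (edgeR adjusted p = 0.0102). Krt18 rose by 5.26 ± 1.39 on the log2 scale (edgeR adjusted p = 0.0230), and this call was lost without DBA2 BM replicate 1, 2 or 3 (adjusted p = 0.0787, 0.0838 and 0.0962). Of 6 members that passed the filter, 4 were called higher (Krt8, Krt18, Krt19 and Cdh1), beside 24.9% of 13624 genes called in either direction and 13.9% called higher. Krt8 and Krt19 passed the filter through the group in which they were high, so this count carries no weight of its own. By the study's thresholds 0 of the 6 passed, beside 2.97% of genes. The count at an unadjusted p under 0.05 was 5 of 6.

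Within the LN2E1 model, the simple keratins fell in lymph node TIMs relative to primary tumor TIMs. Krt8 fell by 8.55 on the log2 scale (SE 0.90, edgeR adjusted p = 0.000391), Krt18 fell by 5.67 (SE 0.94, edgeR adjusted p = 0.00373) and Krt19 fell by 5.54 (SE 1.26, edgeR adjusted p = 0.0167). As a ratio of levels, Krt8 was 394-fold higher in primary tumor TIMs than its 13 counts over the 5 lymph node libraries (231 to 741). Without lymph node replicate 5, which held 86 of the 93 Krt19 counts and 9 of the 13 Krt8 counts, the log2 changes were -8.81 for Krt19 and -9.80 for Krt8. Without lymph node replicate 4 that of Krt18 was -6.32. Of 6 members tested, 3 were called and all 3 were lower, beside 11.7% of 13488 genes called in either direction and 5.55% called lower. These 3 passed the filter through primary tumor TIMs, in which they were high, so their count carries no weight of its own. The study's thresholds left 0 of the 6 and 0.0297% of genes in edgeR, and 3 members had an unadjusted p under 0.05.

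The simple keratins kept a narrow ratio to each other within a library. The 9 libraries with at least 100 counts of Krt8 were all 5 primary tumor libraries and 4 LN4K1 lung libraries, and levels were compared per kilobase of exon. Krt18 stood at 1.16, 1.25, 1.01, 1.04 and 1.19 times Krt8 in primary tumor TIMs and at 1.58, 1.75, 2.19 and 1.72 times Krt8 in LN4K1 lung TIMs. Krt19 stood at 0.741 to 1.17 times Krt8 in primary tumor TIMs and at 1.52 to 1.86 times in LN4K1 lung TIMs. Neither range overlapped between the models, and within a model the highest ratio was at most 1.58 times the lowest. This is a description of 9 libraries without a test.

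The ratio of Cdh1 to Krt8 was looser and went the other way. It was 3.41, 1.42, 2.496, 2.21 and 0.983 in primary tumor TIMs, a spread of 3.46 times, and 0.440, 0.448, 0.674 and 0.232 in LN4K1 lung TIMs, a spread of 2.91 times. Epcam stood at 0.2398 to 0.577 times Krt8 in primary tumor TIMs and at 0.00238 to 0.0309 times in LN4K1 lung TIMs. Cdh1 and Epcam were thus higher relative to Krt8 in every primary tumor library than in any LN4K1 lung library, while Krt18 and Krt19 were lower relative to Krt8.

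**Figure D2:**
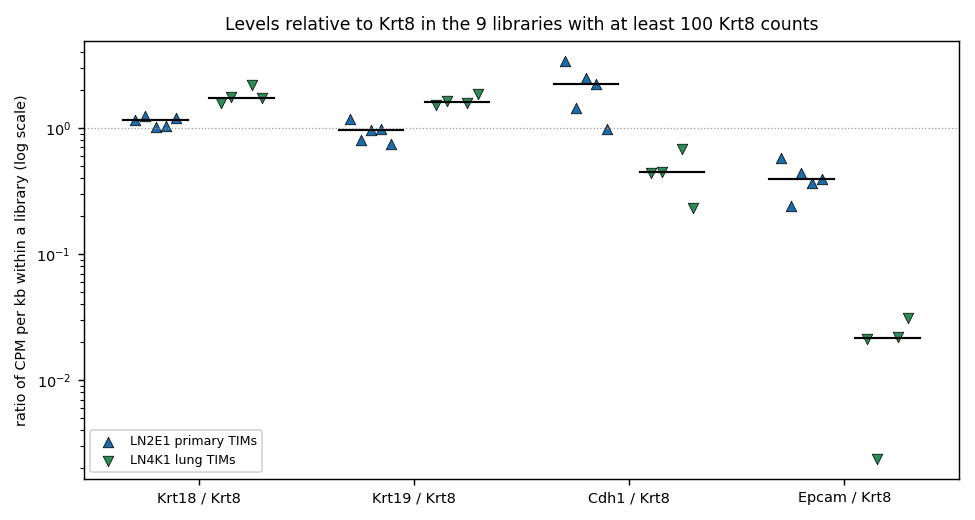
Level of Krt18, Krt19, Cdh1 and Epcam relative to Krt8 within a library (y axis, ratio of CPM per kilobase of exon, log scale) for the 5 LN2E1 primary tumor and 4 LN4K1 lung libraries with at least 100 Krt8 counts, each point a library and each line the group median. Krt18 and Krt19 sit near or above 1 in both models, Cdh1 falls from a median of 2.21 to 0.444, and Epcam from 0.396 to 0.0215.

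The squamous genes were at or near 0. Krt5 was at 0 in 16 of 21 libraries and reached at most 10 counts, in primary tumor replicate 4 and lymph node replicate 3. Trp63, the regulator of basal squamous identity, was at 0 in 18 libraries and reached 9 counts in LN4K1 lung replicate 5. Neither passed the filter on low counts in any comparison, so a difference was not detectable at this depth. Krt14, the type I partner of Krt5, was at 0 in 11 libraries. Its highest value was 220 counts (2.49 CPM) in primary tumor replicate 2, where the other 4 primary tumor libraries held at most 3 counts. In LN4K1 lung TIMs Krt14 was at 0, 0.222, 0.0135, 0.238 and 0.558 CPM, with 1 count over the 3 DBA2 BM libraries. In primary tumor TIMs Krt14 did not pass the filter, and it was called with all 5 groups in one fit (edgeR adjusted p = 0.0265). The LN4K1 lung difference did not pass (log2 fold change 5.37 ± 2.05, edgeR adjusted p = 0.0862), and it passed without LN4K1 lung replicate 3 (adjusted p = 0.0351) and in DESeq2 (adjusted p = 0.0350).

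Sox2, which marks the upper airway and many squamous carcinomas, was confined among these libraries to the LN2E1 model. It was at 0.0323, 0.475, 0.395, 0.475 and 0.372 CPM in primary tumor TIMs, that is 3, 42, 34, 43 and 32 counts. Lymph node replicate 3 held 18 counts (0.214 CPM), and the other 4 lymph node libraries, all 5 LN4K1 lung libraries and all 6 BM libraries held 0. Against FVB BM IMs, primary tumor TIMs were at least 10.3-fold higher against the limit of 3 counts a library (edgeR adjusted p = 0.00357). Between lymph node and primary tumor TIMs the ratio was 7.92 in favor of the primary tumor (5.01 to 13.4, counting error of 18 counts only) and the difference did not pass (edgeR adjusted p = 0.245). Without lymph node replicate 3 it passed (adjusted p = 0.0156).

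Cdh1 was the one gene of the 9 detected in all 21 libraries. In FVB BM IMs it was at 2.05, 1.28 and 1.68 CPM, and in DBA2 BM IMs at 0.339, 0.0399 and 0.475 CPM. Primary tumor TIMs held 45.4, 55.4, 45.7, 73.2 and 42.5 CPM, lymph node TIMs 58.2, 50.3, 136, 59.9 and 8.14 CPM, and LN4K1 lung TIMs 20.1, 37.2, 1.11, 33.1 and 19.5 CPM. Every primary tumor and lymph node library was above every FVB BM library, and every LN4K1 lung library was above every DBA2 BM library, replicate 3 included.

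By group mean, Cdh1 ran from lymph node TIMs (62.4 ± 46.0 CPM, SD, n = 5) through primary tumor TIMs (52.5 ± 12.6, n = 5), LN4K1 lung TIMs (22.2 ± 14.2, n = 5) and FVB BM IMs (1.67 ± 0.381, n = 3) to DBA2 BM IMs (0.285 ± 0.223, n = 3). The LN4K1 lung mean was 27.5 ± 9.03 CPM without replicate 3 (n = 4). Cdh1 rose in primary tumor TIMs by 4.95 ± 0.26 on the log2 scale (edgeR adjusted p = 5.73e-07), in lymph node TIMs by 5.23 ± 0.82 (edgeR adjusted p = 0.000783) and in LN4K1 lung TIMs by 6.21 ± 1.204 against their own BM IMs (edgeR adjusted p = 0.00479; 6.80 without DBA2 BM replicate 3). The first and second of these share the FVB BM libraries. Lymph node and primary tumor TIMs, neighbours in this order, differed by 0.26 ± 0.50 (edgeR adjusted p = 0.797), and the sign turned without lymph node replicate 3 (-0.25) and stood at 0.55 without lymph node replicate 5. LN4K1 lung and primary tumor libraries did not overlap and were not tested directly. DBA2 BM libraries were all below FVB BM libraries, by 2.52 ± 0.82 on the log2 scale, which did not pass (edgeR adjusted p = 0.0596, unadjusted p = 0.0138) and passed in DESeq2 (adjusted p = 0.00826).

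Cdh1 and the simple keratins came apart in lymph node TIMs. Lymph node replicates 3 and 4 held 11411 and 4865 counts of Cdh1 and 0 counts of Krt8. The library with the lowest Cdh1 in that group, replicate 5, held the most Krt8 (9 counts) and Krt19 (86 counts). Krt18 did not share this order, at 0.0832 CPM in replicate 5 and highest in replicate 4 (0.505 CPM). Per kilobase of exon, lymph node TIMs averaged 13.6 CPM of Cdh1 and 0.0162 CPM of Krt8, and primary tumor TIMs 11.5 and 6.42.

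**Figure D3:**
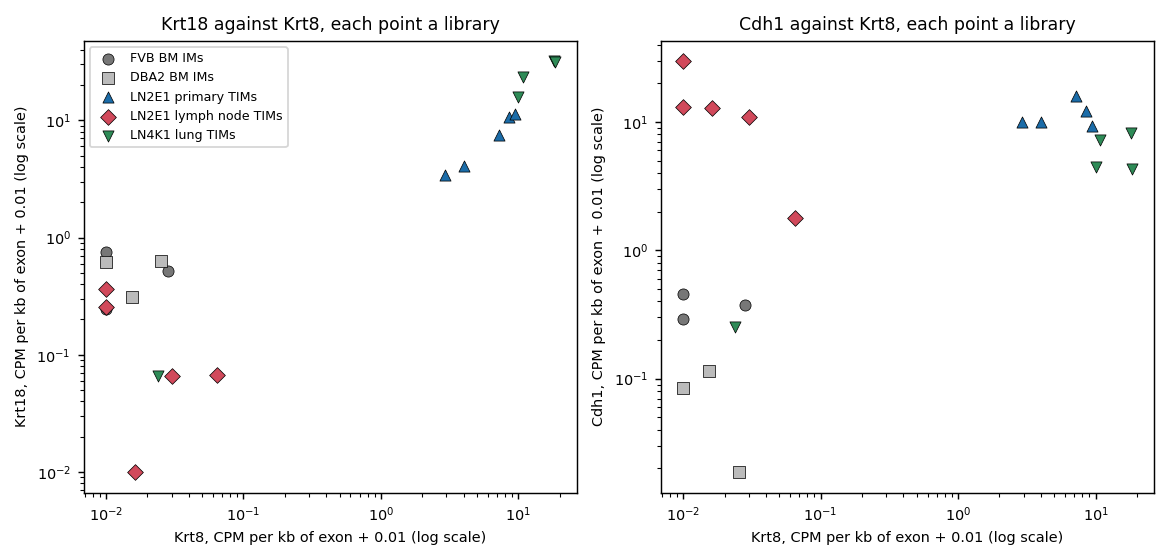
Krt18 (left, y axis) and Cdh1 (right, y axis) against Krt8 (x axis), all in CPM per kilobase of exon plus 0.01 on log scales, each point 1 of 21 libraries with the 5 groups by color and shape. Krt18 is highest in the libraries with high Krt8, whereas the 5 lymph node libraries lie at the left edge for Krt8 with Cdh1 levels of up to 29.6, and LN4K1 lung replicate 3 lies at the low Krt8 levels of the BM libraries.

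Epcam, like Cdh1, was detected in every lymph node library. It was at 3.70, 4.48, 3.88, 5.81 and 8.21 CPM in primary tumor TIMs, at 2.98, 0.212, 4.40, 1.26 and 1.66 CPM in lymph node TIMs and at 0.464, 0.0950, 0.0405, 0.517 and 1.25 CPM in LN4K1 lung TIMs. FVB BM IMs held 1 count in total and DBA2 BM IMs 11 counts, all in replicate 1. Primary tumor libraries lay above all LN4K1 lung libraries and overlapped with lymph node libraries.

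Epcam rose in primary tumor TIMs against FVB BM IMs (5.21 ± 1.87 CPM, SD, n = 5; edgeR adjusted p = 2.54e-06), with a ratio of 1554 to 1 baseline count whose counting interval ran from 279 to 61395. It rose in lymph node TIMs against the same baseline (2.10 ± 1.62 CPM, n = 5; edgeR adjusted p = 0.00242), with a ratio of 626 (112 to 24738). Without FVB BM replicate 2, which held that count, the fitted log2 changes moved from 10.09 to 11.91 and from 8.78 to 10.51. In lymph node TIMs, 3 of the 9 genes passed the filter and 2 were called higher (Cdh1 and Epcam), beside 37.4% of 13273 genes called in either direction and 20.2% called higher. Epcam passed the filter through the group in which it was high, so this count carries no weight of its own. The study's thresholds left 0 of the 2 genes called, beside 5.71% of genes, although both had an unadjusted p under 0.05 and both passed in DESeq2 at an adjusted p under 0.05. Krt18, the third gene tested, differed by -1.79 ± 1.37 (edgeR adjusted p = 0.348). The Epcam difference between lymph node and primary tumor TIMs (log2 fold change -1.30, edgeR adjusted p = 0.218) and that between LN4K1 lung TIMs and DBA2 BM IMs (3.52, edgeR adjusted p = 0.172) did not pass, and the latter passed with all 5 groups in one fit (adjusted p = 0.0464).

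An interaction term asked whether the TIM change of a gene differed between models. It set LN2E1 primary tumor TIMs over FVB BM IMs against LN4K1 lung TIMs over DBA2 BM IMs. Epcam was the 1 gene called of 7 tested, beside 26.5% of 15182 genes. Its change was larger in the LN2E1 model by 6.60 ± 1.93 on the log2 scale (edgeR adjusted p = 0.0203). The call was lost without FVB BM replicate 1 (adjusted p = 0.0604) and without DBA2 BM replicate 1, which held all 11 DBA2 counts (1.71, adjusted p = 0.919). Cdh1 differed by -1.25 ± 1.03 (edgeR adjusted p = 0.401), which does not show that the models were alike. Krt8 and Krt18 differed by -0.73 ± 3.24 and -1.38 ± 1.33 (edgeR adjusted p = 0.924 and 0.481), and the sign of Krt8 turned without FVB BM replicate 3 (2.71). Krt14 differed by 3.21 ± 3.71 (edgeR adjusted p = 0.572), by -2.13 without primary tumor replicate 2, and passed in DESeq2 (adjusted p = 0.000128). Krt19, at 0 in every DBA2 BM library, gave a fitted difference of -6.68 ± 4.13 (edgeR adjusted p = 0.255) that passed without LN4K1 lung replicate 3 (-7.02, adjusted p = 0.0293). For Sox2 no difference could be estimated, since all DBA2 BM and LN4K1 lung libraries were at 0. Between the BM IMs of the strains, 0 of 2 genes tested were called in edgeR, beside 21.1% of 12905 genes, with 1 at an unadjusted p under 0.05 and 1 called in DESeq2 (Cdh1 in each case).

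The genes whose levels were most like those of Cdh1 over the 21 libraries were Ablim1 (Pearson r of log2 CPM, 0.96), Cox6a2 (0.95), Cd300lf (0.95), Hid1 (0.95) and Pacsin1 (0.95), of 15418 genes ranked. Cd300lf, a myeloid inhibitory receptor, averaged 95.8 CPM in FVB BM IMs and 32.8 CPM in DBA2 BM IMs. It averaged 426 CPM in primary tumor TIMs, 374 CPM in lymph node TIMs and 271 CPM in LN4K1 lung TIMs. The other genes named averaged at most 0.219 CPM in BM IMs. In TIMs they averaged between 1.94 CPM (Hid1, LN4K1 lung) and 60.9 CPM (Cox6a2, lymph node). Epcam ranked 410 for likeness to Cdh1 (r = 0.82), Krt19 ranked 2819 (0.54) and Krt8 ranked 3041 (0.51). Krt18, the one of the 5 keratins among the 9 genes with the highest median, had among the genes most like it Sprr1a (0.92), a cornified envelope protein, Pkp2 (0.91), a desmosomal plaque protein, Gipc2 (0.91) and Ccdc68 (0.90). Krt8 ranked 15 (0.89) and Krt19 ranked 39 (0.85) for likeness to Krt18, and Cdh1 ranked 5385 (0.29). The points are libraries that share 5 groups, so these values describe group differences and carry no test.

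The counts of the lists that follow are read beside the shares over all genes tested, which were 61.9% called in either direction and 33.3% higher in primary tumor TIMs, 37.4% and 20.2% in lymph node TIMs, and 24.9% and 13.9% in LN4K1 lung TIMs against their BM IMs, and 11.7% in either direction and 5.55% lower in lymph node against primary tumor TIMs. They are descriptions, and nothing particular to a list is read from them. Of 14 other epithelial keratins, 4 passed the filter in primary tumor TIMs against FVB BM IMs, of which 3 were higher (Krt23, Krt7 and Krt80) and 1 lower (Krt10), with a median log2 change of 1.995 beside 0.08 over all genes. Krt7, a type II keratin of simple epithelium, was at 3.40, 13.8, 8.72, 12.1 and 13.5 CPM there and at 16.2, 31.9, 4.61, 18.2 and 35.9 CPM in LN4K1 lung TIMs. In BM IMs it was already at 1.70 to 3.07 CPM. It rose by 2.08 ± 0.44 in primary tumor TIMs (edgeR adjusted p = 0.00270) and by 3.16 ± 0.61 in LN4K1 lung TIMs (edgeR adjusted p = 0.00452), and fell by 2.98 from primary tumor to lymph node TIMs (SE 0.47, edgeR adjusted p = 0.00319). Krt80, by contrast, was in every BM library (15.9 to 57.4 CPM), rose by 1.81 ± 0.29 in lymph node TIMs (edgeR adjusted p = 0.000880) and was higher in DBA2 than FVB BM IMs by 1.23 ± 0.31 (edgeR adjusted p = 0.0256). Krt20 was detected in 4 LN4K1 lung libraries (0.209, 2.01, 0.972 and 2.82 CPM, 0 in replicate 3) and reached 1 count in the other groups, and it was at least 37.9-fold higher than in DBA2 BM IMs (edgeR adjusted p = 0.0328). Krt6a, Krt16 and Krt17, the stress keratins of squamous epithelium, reached at most 0.298 CPM in any library. In lymph node TIMs against FVB BM IMs 1 of 3 tested was higher and 0 lower (median -0.90, all genes -0.04), and in LN4K1 lung TIMs 2 of 5 were higher and 0 lower (median 3.16, all genes 0.03).

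Jup, a partner of E-cadherin at the membrane, was among the genes higher in primary tumor and lymph node TIMs. Of 12 genes listed for the cadherin complex, 8 passed the filter in primary tumor TIMs and 7 were higher, 0 lower (median 2.14). Jup (plakoglobin) was at 1.70, 2.29 and 5.68 CPM in FVB BM IMs and at 23.3 to 34.2 CPM in primary tumor TIMs. Jup rose in lymph node TIMs by 3.06 ± 0.53 (edgeR adjusted p = 0.00139) and Cdh5, the endothelial cadherin, by 5.56 ± 1.39 (edgeR adjusted p = 0.0107), with 2 of 7 tested higher and 0 lower (median 0.80). Jup was at 3.74 to 11.01 CPM in LN4K1 lung TIMs and 6.45 to 8.33 CPM in DBA2 BM IMs, and its change differed between the models (3.29 ± 0.55, edgeR adjusted p = 0.000980). In LN4K1 lung TIMs 3 of 8 were higher (Cdh17, Cdh5 and Ctnnd1) and 1 lower (Vcl) with a median of 0.42. Cdh2 (N-cadherin), 3.00 ± 1.25 CPM in primary tumor TIMs and 0 in FVB BM IMs (at least 88.1-fold, edgeR adjusted p = 3.33e-05), fell by 5.45 in lymph node TIMs (SE 1.44, edgeR adjusted p = 0.0323). Between lymph node and primary tumor TIMs 0 of 8 were higher and 2 lower (median -0.49). Of 9 desmosome genes, 4 passed the filter in primary tumor TIMs and 2 were higher (Dsg2 and Pkp2, each at 0.25 CPM on average), 0 of 2 were called in lymph node TIMs (0 at an unadjusted p under 0.05 and 0 in DESeq2), and 1 of 3 was higher in LN4K1 lung TIMs (Pkp2, 0.545 ± 0.399 CPM).

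Tight junction genes were higher in 8 and lower in 1 of 11 tested in primary tumor TIMs (median 5.97, or 4.39 with the 4 genes at 0 in FVB BM IMs set to their lower bound). Cldn3, a claudin of lung epithelium, was at 5.83 ± 3.57 CPM and Cldn18 at 4.13 ± 3.04 CPM there, both at 0 in FVB BM IMs (at least 171-fold and 121-fold, edgeR adjusted p = 6.99e-05 and 0.000101). In lymph node TIMs 2 of 6 were higher and 0 lower (median 1.33). F11r (JAM-A) rose by 5.18 ± 0.65 (edgeR adjusted p = 0.000203). It was at 20.6 to 37.7 CPM in lymph node TIMs and at 0.284 to 1.75 CPM in FVB BM IMs. From primary tumor to lymph node TIMs 4 of 11 were lower and 0 higher (median -1.71), led by Cldn7 and Cldn3, and in LN4K1 lung TIMs 3 of 9 were higher and 2 lower (median 2.88).

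Among repressors of Cdh1 and activators of epithelial genes, 11 of 16 were higher and 0 lower in primary tumor TIMs (median 4.22, or 3.02 with 5 genes at their bound). The 11 included the repressors Twist2 (2.4998 ± 1.07 CPM, at 0 in FVB BM IMs) and Snai2 (3.32 ± 2.15 CPM beside 1 count) and also the epithelial activators Esrp1, Grhl2, Elf3 and Ovol2. The repressor Zeb2 was abundant in BM IMs, at 164 CPM on average in FVB and 260 CPM in DBA2 mice. It averaged 205, 210 and 257 CPM in primary tumor, lymph node and LN4K1 lung TIMs. Zeb2 was not called against BM IMs at any of these sites (edgeR adjusted p = 0.102, 0.161 and 0.694). In lymph node TIMs 1 of 8 was higher (Ovol2, by 6.87 ± 1.33, edgeR adjusted p = 0.00273) and 0 lower, and from primary tumor to lymph node TIMs 5 of 15 were lower (Esrp2, Elf3, Twist1, Snai1 and Zeb1). In LN4K1 lung TIMs 0 of 11 were called in edgeR (1 at an unadjusted p under 0.05, 1 in DESeq2).

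Of 14 partners and targets of p63 and SOX2, 7 of 11 tested were higher and 1 lower in primary tumor TIMs (median 2.13). Sox9, which marks distal lung progenitors and cartilage, was at 7.88 ± 3.56 CPM and at 0 in FVB BM IMs (at least 231-fold, edgeR adjusted p = 1.62e-05), and Foxa2, an endoderm factor, was at 0.557 ± 0.505 CPM. Trp53 fell in TIMs of all 3 sites (1.02, 1.28 and 0.68 on the log2 scale, edgeR adjusted p = 3.61e-05, 0.000276 and 0.00954), the 1 gene lower in each. Among 9 receptors and processing enzymes of E-cadherin, 6 were higher and 2 lower in primary tumor TIMs (median 0.98), 5 higher and 1 lower in lymph node TIMs (0.45) and 2 of 9 higher and 1 lower in LN4K1 lung TIMs (0.10). Furin, the protease that matures pro-E-cadherin, rose by 3.03 ± 0.30, 2.21 ± 0.32 and 1.24 ± 0.20 at these sites, and Itgb7 fell by 0.79, 0.73 and 0.53. Of 10 epithelial surface genes, 6 of 9 were higher and 2 lower in primary tumor TIMs (median 2.12), led by Spint1 and Muc1, 3 of 7 higher and 1 lower in lymph node TIMs (median 0.97) and 4 of 8 higher and 1 lower in LN4K1 lung TIMs (median 0.72). Of 10 other intermediate filaments and linkers, 8 were higher and 1 lower in primary tumor TIMs (median 4.51, or 3.72 with bounds), 5 of 7 higher and 1 lower in lymph node TIMs (0.92) and 2 of 7 higher and 1 lower in LN4K1 lung TIMs (0.40).

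Lung epithelium markers differed between the same groups as the simple keratins, but LN4K1 lung replicate 3 went apart from this. With 2 counts of Krt8, it held 1.66 CPM of Sftpc and 4.79 CPM of Scgb1a1, beside 1.27 and 5.22 CPM in replicate 5. This held for only part of the list, since Sftpa1 was at 0 in replicate 3, beside 0.528 and 0.446 CPM in replicates 4 and 5. The 10 lung epithelium genes summed to between 168 and 949 CPM in primary tumor TIMs and between 11.2 and 115 CPM in LN4K1 lung TIMs, with none at 0 throughout either group, against 4.21 to 6.48 CPM in FVB BM IMs (5 genes at 0), 4.10 to 4.82 CPM in DBA2 BM IMs (6 at 0) and 1.39 to 3.72 CPM in lymph node TIMs (3 at 0). Sftpc, the surfactant protein of alveolar type II cells, was at 140, 43.5, 125, 237 and 624 CPM in primary tumor TIMs and at 65.5, 23.4, 1.66, 2.38 and 1.27 CPM in LN4K1 lung TIMs, with at most 0.570 CPM in lymph node and 0.0114 CPM in BM libraries. Its reads per Krt8 read ran from 2.61 to 33.7 in primary tumor TIMs and from 0.0353 to 3.35 in LN4K1 lung TIMs, so the surfactant gene and the keratin did not keep a fixed ratio. All 10 lung epithelium genes were higher in primary tumor TIMs than in FVB BM IMs and lower in lymph node than in primary tumor TIMs. Their part in the keratin results was not tested.

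The 9 squamous epithelium genes summed to at most 0.246 CPM in lymph node TIMs and 0.123 CPM in BM IMs, to 0.571 to 6.49 CPM in primary tumor TIMs and to 0.203 to 25.1 CPM in LN4K1 lung TIMs. Sprr1a was the main part of that sum in LN4K1 lung TIMs, at 4.20, 15.6, 0, 16.9 and 24.7 CPM in LN4K1 lung TIMs and 0.205, 3.09, 1.24, 1.63 and 4.51 CPM in primary tumor TIMs, and at 0 in every lymph node library. Sprr1a was also absent from LN4K1 lung replicate 3. Dsg3, a defining squamous cadherin, was at 0 in all 21 libraries. Krt7 kept to 0.596 to 1.11 reads per Krt8 read in primary tumor TIMs and 0.827 to 0.995 in LN4K1 lung TIMs, while Sprr1a ran from 0.0358 to 0.244 and from 0.214 to 0.803. The part of tumor cell RNA in these values was not tested, since no library of LN2E1 or LN4K1 cells alone was analysed here.

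The 6 fibroblast genes summed to 375 to 1124 CPM in primary tumor TIMs, 12.2 to 108 CPM in lymph node TIMs, 1.81 to 43.0 CPM in LN4K1 lung TIMs, 5.25 to 9.16 CPM in FVB BM IMs and 0.0898 to 1.39 CPM in DBA2 BM IMs. The ranges of lymph node TIMs, where Krt8 was near 0, and LN4K1 lung TIMs, where it was high in 4 libraries, overlapped. The 6 endothelial genes, mostly Pecam1, summed to 59.1 to 81.5 CPM in primary tumor and 70.7 to 128 CPM in lymph node TIMs. This stood beside 6.11 to 12.2 CPM in FVB BM IMs. The sum was 6.29 to 19.1 CPM in LN4K1 lung TIMs, beside 11.7 to 13.7 CPM in DBA2 BM IMs. Pecam1 averaged 4.75 CPM in FVB BM IMs, 49.0 CPM in primary tumor and 75.4 CPM in lymph node TIMs. Cdh5 and Vwf were also called higher in lymph node TIMs, Kdr did not pass, and Cldn5 held 4 counts and Tek 0 there. The 7 dendritic cell genes, mostly H2-Ab1, summed to 2249 to 3752 CPM in primary tumor, 3231 to 5197 CPM in lymph node and 1057 to 2279 CPM in LN4K1 lung TIMs, beside 190 to 247 CPM in BM IMs. The ranges of lymph node and primary tumor TIMs overlapped. Cd207 (langerin), a marker of the E-cadherin-bearing Langerhans cell, was at 0 in all lymph node, LN4K1 lung and BM libraries and reached 1.41 CPM in primary tumor TIMs. Other genes of this list, Ccr7, Flt3, Xcr1 and H2-Ab1, were called higher in lymph node TIMs than in FVB BM IMs. Their log2 changes were 5.44, 2.58, 2.14 and 5.11 (edgeR adjusted p = 0.00825, 0.000397, 0.0345 and 4.80e-07). Zbtb46 and Cd209a were not called there. In lymph node replicate 3, which held the most Cdh1, Krt8 and Sprr1a were at 0 while Sox2 (18 counts) and Krt5 (10 counts) were detected. The part of epithelial, tumor cell, dendritic, endothelial and fibroblast RNA in the Cdh1 levels was not tested.

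**Figure D4:**
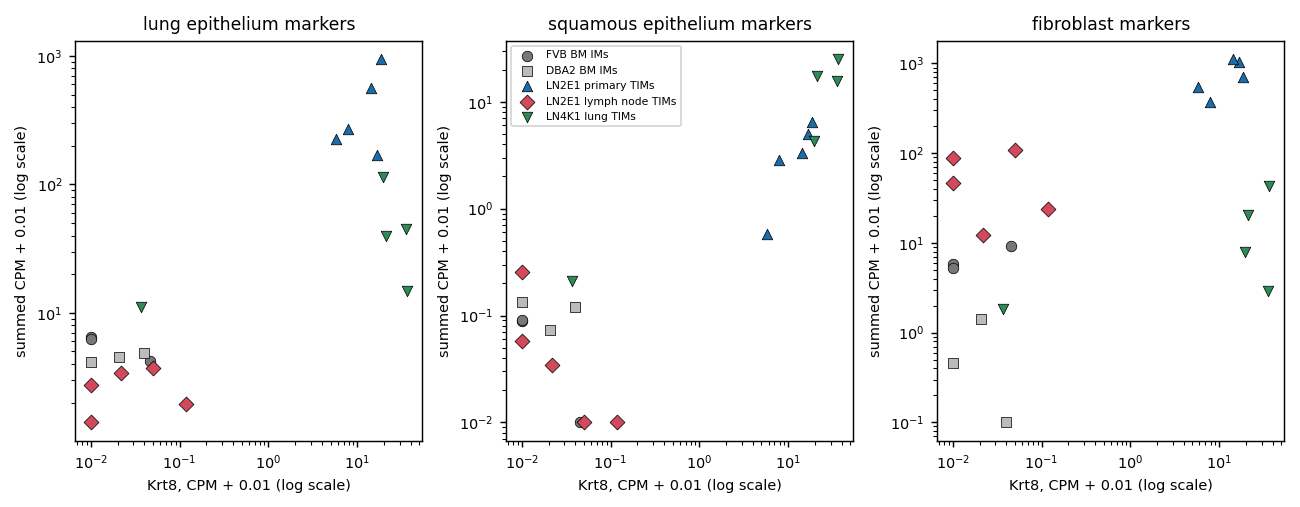
Summed level of the lung epithelium, squamous epithelium and fibroblast marker lists (y axes, CPM plus 0.01, log scale) against Krt8 (x axis, CPM plus 0.01, log scale), each point 1 of 21 libraries with the 5 groups by color and shape. Libraries with high Krt8 also carry lung and squamous markers, and LN4K1 lung replicate 3 carries some lung markers at low Krt8. The fibroblast sum is higher in lymph node libraries (12.2 to 108 CPM) than in FVB BM libraries at Krt8 near 0.

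The other lists were followed for the same reason. Alveolar macrophage genes (6) summed to 30.8 to 40.7 CPM in primary tumor, 49.4 to 93.1 CPM in lymph node and 17.0 to 40.1 CPM in LN4K1 lung TIMs, beside 12.9 to 26.3 CPM in BM IMs. Neutrophil genes (9) summed to 299 to 2021 CPM over all TIMs and 3069 to 6722 CPM in BM IMs, erythroid genes (7) to at most 4.003 and 14.3 CPM, and lymphocyte genes (7) to 5.22 to 27.5 and 3.57 to 25.0 CPM. The neutrophil and lymphocyte sums hide opposite changes. Mmp8 averaged 226 CPM in DBA2 BM and 833 CPM in LN4K1 lung libraries, whereas Mpo averaged 1616 and 53.5 CPM there. Nkg7 averaged 22.2 CPM in FVB BM, 1.46 in primary tumor and 2.02 in lymph node libraries, and 4.91 in DBA2 BM and 7.32 in LN4K1 lung libraries. Cd8a averaged 0.0140 CPM in FVB BM and 0 in DBA2 BM libraries. It averaged 8.00, 12.3 and 6.23 CPM in primary tumor, lymph node and LN4K1 lung TIMs. Monocyte identity genes (6) summed to 34579 to 120627 CPM in TIMs and 45144 to 65588 CPM in BM IMs.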

How the data were processed

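RNA of the sorted cells was amplified with a SMART ultra low input kit and made into non-stranded Nextera XT libraries. The authors trimmed reads with BBDuk, aligned them to mm10 with BBMap and deposited raw counts per gene made with featureCounts, whose settings are not given in the sources used here. The counts were used as deposited. Genes were kept by filterByExpr (minimum count 10, minimum total 15), scaled with TMM factors and tested for each comparison on its own groups by edgeR's quasi-likelihood test (edgeR 4.0.16, limma 3.58.1, R 4.3.3), with Benjamini-Hochberg adjustment over all genes tested. DESeq2 1.42.0 was an alternative. Levels, ratios and figures were made in Python 3.11.15 (numpy 2.4.6, pandas 2.3.3, scipy 1.17.1, matplotlib 3.10.9). Log2 CPM used a prior count of 2. The test was checked on simulated counts.

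The members and lists were chosen with earlier results of these data known. All 9 members were named throughout, and from each list the 2 genes with the largest called change in each direction per comparison. Other list and marker genes were named after their values were seen, and some genes that the rule selects are not reported here. Alternatives were other scalings and filters, all 5 groups in one fit, a replicate block, the study's thresholds and leaving out each library.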

Additional observations from a re-analysis of the deposited data

Results flagged for a closer look

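A library was looked at again where its gap to the nearest library of its group, divided by the group's range, both on the log2 CPM scale (prior count 2), passed Dixon's critical value of 0.71 for 5 libraries. Chance passes about 1 in 20 groups of independent normal values, and 10 of 23 groups tested passed. Of the 10 cases, 4 are the same library, and in 4 a single library held every count. They are not independent, so no excess over chance is read from them. LN4K1 lung replicate 3 lay far below the other 4 libraries of its group for Krt8 (0.908 of the range), Krt18 (0.885), Krt19 (0.869) and Cdh1 (0.815). On the CPM scale, tried after seeing the data, these 4 were 0.543, 0.495, 0.442 and 0.509 and did not pass, while the other 6 cases did. Primary tumor replicate 2 lay above its group for Krt14 (0.807), with 220 counts. Primary tumor replicate 1 lay below its group for Sox2 (0.895), with 3 counts. In the other 4 cases a single library of the group held every count, which gives a value of 1, and these were Krt5 and Sox2 in lymph node replicate 3 (10 and 18 counts), Trp63 in primary tumor replicate 5 (6 counts) and Trp63 in LN4K1 lung replicate 5 (9 counts).

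The change of Epcam from BM IMs to TIMs differed between the LN2E1 primary tumor and LN4K1 lung models by 6.60 on the log2 scale (edgeR interaction term, adjusted p = 0.0203), and this rested on DBA2 BM replicate 1, without which it was 1.71 (adjusted p = 0.919).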

How the results depend on the processing

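With DESeq2 size factors, library totals only, or a filter of at least 1 count in total, all 30 fold changes of the 9 genes kept their direction and side of the threshold. Requiring at least 10 counts in every library tests fewer genes by construction, and the members called were then 2 (primary tumor), 1 (lymph node) and 0 for LN4K1 lung, lymph node against primary tumor and the interaction. At the study's thresholds 0 members remained in each comparison but the primary tumor one, and genes called were 1879, 758, 405, 4, 52 (between strains) and 56 (interaction). DESeq2 called 2399 genes between lymph node and primary tumor, 1 member between strains and 3 in the interaction, and all 5 groups in one fit called 1595 genes between strains. The labels do not say whether same-numbered libraries were paired, and the correlations of their deviations cannot decide it. These ran from -0.139 to 0.114 between lymph node and primary tumor, where only replicates 2 and 4 correlated best with their own number. Between lymph node and FVB BM they were 0.232, 0.0496 and 0.235. There each of the 3 correlated best with its own number, although tumor-bearing and healthy mice are different animals. With a replicate block, genes called were 5954 (primary tumor), 1324 (LN4K1 lung) and 533 (lymph node against primary tumor), members called were 1 (lymph node, Epcam lost at adjusted p = 0.0589) and 2 (LN4K1 lung), and Cdh1 between lymph node and primary tumor was -0.13. Leaving out 1 library gave 2134 (without DBA2 BM replicate 3) to 5036 genes (without LN4K1 lung replicate 3) for LN4K1 lung, 889 (without primary tumor replicate 4) to 2256 (without lymph node replicate 1) for lymph node against primary tumor, and 1115 (without FVB BM replicate 2) to 4828 (without FVB BM replicate 3) between strains. It gave 0 to 2 members in the interaction, and log2 values of -0.25 to 0.55 for Cdh1 between lymph node and primary tumor, -0.27 to 0.46 for Krt18 between strains, and -1.93 to 2.71 for Krt8 and -2.13 to 3.97 for Krt14 in the interaction. The cause was not tested. Counts near 0 limit Krt5, Trp63, Krt14 and Sox2.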
